A study of Aspergillus fumigatus with 4 samples.

Results

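The cellobiohydrolases of *Aspergillus fumigatus* Z5, a fungal strain studied for its breakdown of plant biomass, were described here across 4 carbon sources. They were taken by locus tag as the genes that the study calls cellobiohydrolases, and they were Y699_04296, Y699_03865 and Y699_07898, 3 of the 9540 genes in the table of read counts. All mycelia came from conidia of the same strain grown at 45 °C in a basic medium with sucrose, for 20 h by the sample labels. For 3 of the libraries the mycelia were then washed and moved for 16 h into medium without yeast extract, with oat spelt xylan, cellulose (Avicel, a microcrystalline form) or rice straw powder as the carbon source. Sucrose was the control, and neither labels nor methods make plain at what age its own culture was harvested. The 4 gene expression patterns are named after their carbon sources: SGEP (sucrose), XGEP (xylan), CGEP (cellulose) and RGEP (rice straw). Each came from 1 library, so carbon source cannot be told apart from differences between single cultures. In comparisons with sucrose it also cannot be told apart from the transfer, the medium, the carbon source concentration or the age of the culture.

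Cellobiohydrolases release cellobiose, a disaccharide of glucose, from the ends of cellulose chains, and they stay on the chain from cut to cut. In fungi they belong to glycoside hydrolase families GH7, whose enzymes work from the reducing end, and GH6, whose enzymes work from the non-reducing end. Many carry CBM1, a small fungal module that binds crystalline cellulose. Endoglucanases open new chain ends, AA9 enzymes break chains by oxidation, and β-glucosidases split the cellobiose that is set free. The genes of these enzymes are known in Aspergillus to be silent on easily used sugars and to be switched on by plant polymers.

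Y699_04296 is annotated as a GH7 enzyme with CBM1 and carries the symbol cbhB in the Af293 reference annotation (assembly ASM265v1). Y699_03865 is annotated as celD, a GH7 enzyme with no CBM1, and is cbhA in Af293. Y699_07898 is a GH6 enzyme with CBM1, cbhC in Af293, and the single GH6 gene in the lists used. Their coding lengths were 1599, 1359 and 1380 bases, which give proteins of 532, 452 and 459 residues, and all 3 genes had reads in every library.

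All 3 genes were scarce on sucrose and abundant on cellulose and rice straw, and they parted in between. Y699_04296 had 1 read in the SGEP, 17 in the XGEP, 54372 in the CGEP and 9418 in the RGEP. As RPM, the reads of a gene for every 1000000 reads of its library, these were 0.143, 2.49, 7749 and 1247. The gene was thus near silent on sucrose and highest on cellulose. Y699_03865 had 21, 151, 2803 and 1616 reads in the same order, or 2.998, 22.1, 399 and 214 RPM. Its range was the narrowest of the 3, and it was the gene with the most reads of the 3 on xylan. Y699_07898 had 19, 61, 37868 and 44847 reads, or 2.71, 8.94, 5397 and 5937.5 RPM, with nearly level values on cellulose and rice straw. Exact 95% Poisson intervals for the smallest counts ran from 0.00361 to 0.795 RPM for Y699_04296 on sucrose and from 1.45 to 3.99 RPM on xylan. Such intervals cover counting error alone, and the reads were amplified by PCR without molecular identifiers.

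**Figure D1:**
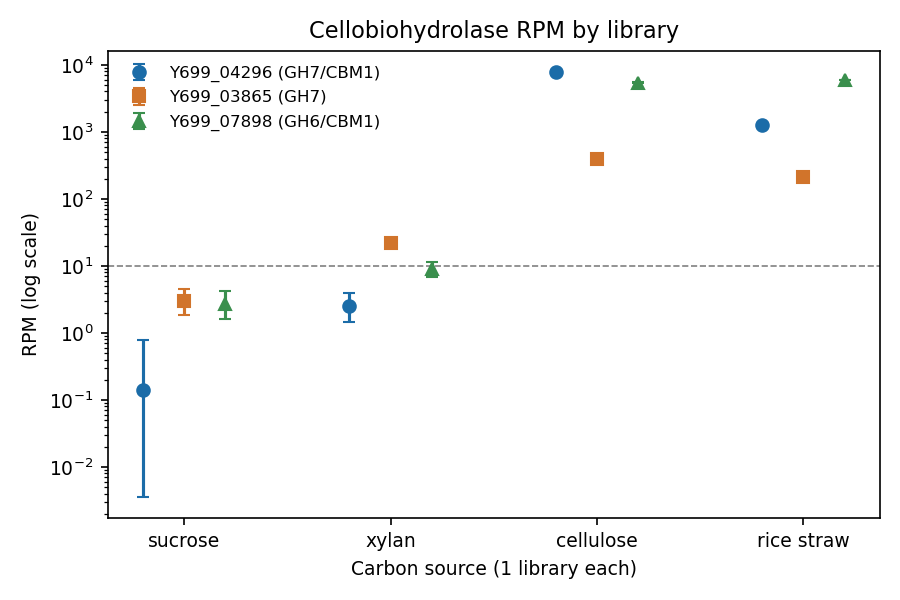
RPM (log axis) of the 3 cellobiohydrolase genes in each of the 4 libraries; points are single libraries, bars are exact 95% Poisson intervals of the read count, and the dashed line marks 10 RPM. On sucrose all 3 genes lie below 10 RPM and on xylan Y699_03865 alone lies above it, while on cellulose and rice straw all 3 lie at 214 RPM or more.

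Against sucrose the comparison asked in which libraries the cellobiohydrolase genes had a higher RPM. On cellulose all 3 passed the test as higher, and on rice straw all 3 did, while on xylan 1 did. A gene passed, or was called, when the exact two-sided binomial test between 2 libraries passed at a q of 0.0001 or less (Benjamini-Hochberg, over all genes tested), when its RPM differed at least 4-fold, and when it reached 10 RPM in either library. By this rule 10.9% of 9423 genes tested were higher and 7.28% lower on cellulose, 7.61% higher and 7.12% lower on rice straw, and 3.16% higher and 1.57% lower on xylan. The test compares libraries and not conditions, because no carbon source had a replicate, and the 3 comparisons share the sucrose library. In bulk RNA, fewer cells that express a gene and less of its RNA per cell cannot be told apart.

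The RPM of Y699_04296 was 54287 times its sucrose value on cellulose, with a 95% counting interval of 9743 to 2144263. This ratio ranked 1 among 9423 genes, and the interval is wide because the denominator is 1 read. On rice straw the gene stood 8735-fold higher (1568 to 345067), again rank 1, among 9408 genes. Y699_07898 was 1990-fold higher on cellulose (1274 to 3306) and 2189-fold on rice straw (1402 to 3637), ranks 5 and 7. The GH7 gene without CBM1, Y699_03865, stood further down, at 133-fold (87.0 to 216) and 71.4-fold (46.5 to 116), ranks 76 and 86. The order of the 3 genes by ratio was therefore the same on both substrates, although the intervals of Y699_04296 and Y699_07898 overlapped on rice straw.

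On xylan, Y699_03865 rose 7.39-fold over sucrose (4.66 to 12.3, q = 1.80e-25 by the exact binomial test). The ratio of Y699_07898 was 3.30 (1.94 to 5.85, q = 4.23e-06), below 4-fold, and the gene reached 8.94 RPM. Y699_04296 had the highest ratio of the 3, 17.5 (2.74 to 730), but it rested on 17 reads against 1, with q = 1.52e-04 and 2.49 RPM. Each of the 3 genes thus had a higher RPM on xylan than on sucrose, and the order of their ratios was not resolved between Y699_04296 and either of the other two. The call of Y699_03865 on xylan was lost at an 8-fold threshold and when 10 RPM was asked of both libraries. It was also lost when biological variation was assumed at a coefficient of variation of 0.4 (q = 0.0858 by edgeR's exact test).

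**Figure D2:**
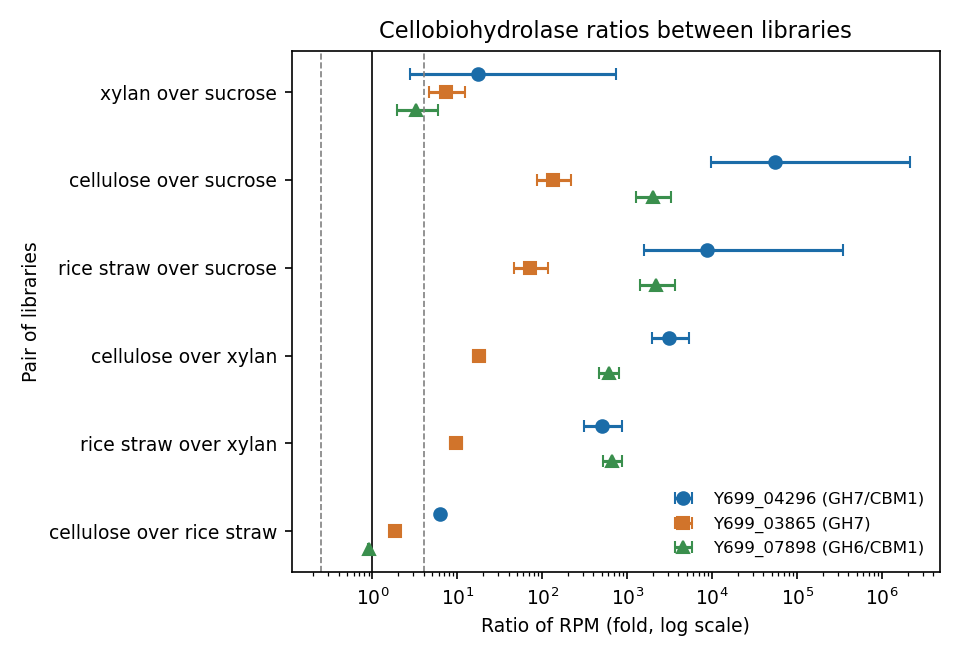
Ratio of RPM between 2 libraries (log axis) for the 3 cellobiohydrolase genes in 6 pairs of libraries; bars are exact 95% counting intervals, the solid line marks a ratio of 1 and the dashed lines mark 4-fold in either direction. The intervals are widest where the sucrose count enters for Y699_04296, and in the pair of cellulose over rice straw the 3 genes lie at 6.21, 1.87 and 0.909.

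Against xylan, which shares the transfer and the medium without yeast extract, all 3 genes were again called higher on cellulose and on rice straw. Y699_04296 was 3109-fold higher on cellulose than on xylan (1942 to 5337) and 500.3-fold on rice straw (312 to 859). For Y699_07898 the values were 603-fold (470 to 789) and 664-fold (517 to 868). Y699_03865 changed least of the 3, at 18.04-fold (15.3 to 21.4) and 9.66-fold (8.18 to 11.5). Over all genes, 9.65% of 9406 were higher and 6.49% lower on cellulose than on xylan, and 4.56% of 9410 were higher and 4.68% lower on rice straw than on xylan. With an assumed coefficient of variation of 0.4, the 2 calls of Y699_03865 against xylan were lost (q = 3.92e-04 on cellulose and q = 0.0106 on rice straw, edgeR's exact test).

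The pure and the natural substrate were then set against each other, in a pair of libraries without the sucrose control. Here the 3 genes went separate ways. Y699_04296, annotated as GH7 with CBM1, was 6.21-fold higher on cellulose than on rice straw (6.08 to 6.35) and was called. Y699_03865, of the same family, was at 1.87-fold (1.76 to 1.99), under the 4-fold threshold. Y699_07898, annotated as GH6 with CBM1, was at 0.909-fold (0.897 to 0.921). On the log2 scale the ratios were 2.64, 0.90 and -0.14, beside a median of 0.36 over the 9412 genes tested, of which 5.76% were called higher and 4.26% lower on cellulose. These were 542 and 401 genes, and with the TMM factors 348 and 544. Over the 5 other scalings tried, the log2 ratio of Y699_07898 ran from -0.52 to 0.24, so its direction changed with the scaling, while those of Y699_04296 (2.26 to 3.01) and Y699_03865 (0.52 to 1.28) did not. With an assumed coefficient of variation of 0.4 the call of Y699_04296 was lost (q = 0.0494, edgeR's exact test), as it was at 8-fold.

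A ratio of 2 genes within a library does not depend on how libraries are scaled, so the balance among the 3 genes was compared as well. The read ratio of Y699_04296 to Y699_07898 was 6.84 times as high on cellulose as on rice straw (6.66 to 7.02), and that of Y699_04296 to Y699_03865 was 3.33 times as high (3.12 to 3.55). The read ratio of Y699_07898 to Y699_03865 was 2.05 times as high on rice straw as on cellulose (1.93 to 2.19). All 3 differences passed at q of at most 0.0001 by the exact conditional test of 4 read counts, adjusted over 18 such tests. Between cellulose and sucrose, Y699_04296 gained 27.3 times as much as Y699_07898 (4.34 to 1134, q = 7.63e-07). Between rice straw and sucrose that figure was 3.99 with an interval of 0.634 to 166 (q = 0.263, exact conditional test), so a difference was not detectable with 1 sucrose read. On rice straw against xylan, the gains of the same 2 genes were also not told apart, at a ratio of 0.754 (0.434 to 1.38, q = 0.313, exact conditional test).

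As shares, the 3 genes changed places with the substrate. Per kilobase of coding length, Y699_03865 made up 51.8% of their reads on sucrose and 67.0% on xylan, but 3.25% on cellulose and 3.005% on rice straw. Y699_04296 held 53.5% on cellulose and 14.9% on rice straw, against 2.10% on sucrose and 6.41% on xylan. Y699_07898 held 43.2% on cellulose and 82.1% on rice straw. The GH7 gene with CBM1 thus led on pure cellulose and the GH6 gene led on straw. The sucrose and xylan shares rest on 41 and 229 reads of the 3 genes together, the other shares on 95043 and 55881. By reads, the share of Y699_04296 on sucrose had an exact 95% binomial interval of 0.0617% to 12.9%, against 56.9% to 57.5% on cellulose and 16.5% to 17.2% on rice straw.

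**Figure D3:**
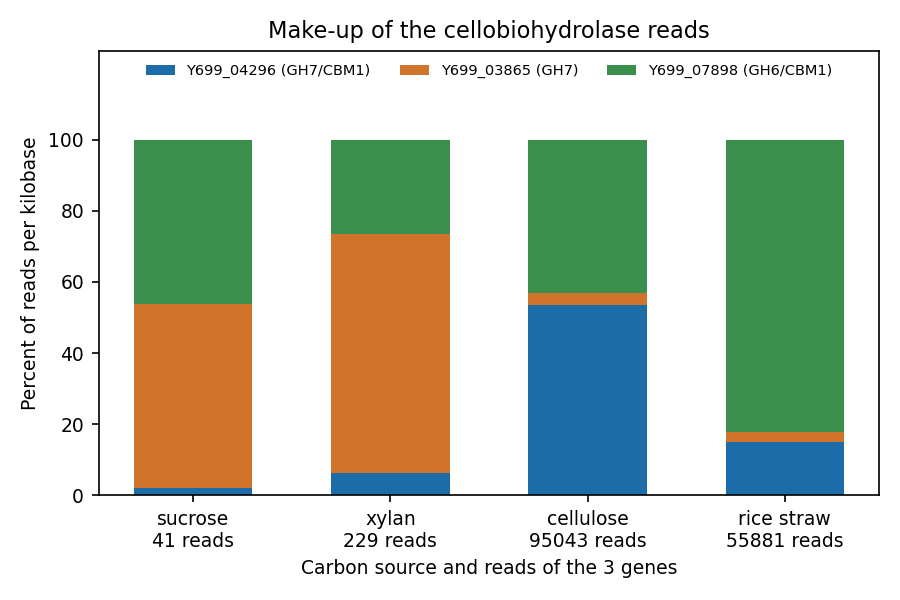
Share of each cellobiohydrolase gene in the reads of the 3 genes, each divided by its coding length, in percent, for the 4 libraries; the number of reads of the 3 genes is under each bar. Y699_03865 is the largest segment on sucrose and xylan (51.8% and 67.0%), Y699_04296 on cellulose (53.5%) and Y699_07898 on rice straw (82.1%).

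Together the 3 genes took 5.85e-04% of all reads on sucrose, 0.00336% on xylan, 1.35% on cellulose (1.35% to 1.36%, exact 95% binomial) and 0.740% on rice straw (0.734% to 0.746%). The libraries held 7005719, 6820702, 7016686 and 7553138 reads in that order, so depth differed little between them. By RPM per kilobase, Y699_04296 was the gene at rank 10 among all genes on cellulose, with 4846, and at rank 156 on rice straw, with 779.8. Y699_07898 was at rank 12 on cellulose with 3911 and at rank 21 on rice straw with 4303, and Y699_03865 was at ranks 431 and 858 with 294 and 157. On xylan the best placed of them was Y699_03865 at rank 4659, and on sucrose all 3 were below rank 7800. Among the 51 genes of the cellulose breakdown list drawn from the study's annotation, the 3 cellobiohydrolases had 0.149%, 0.621%, 42.2% and 27.8% of the reads in the SGEP, XGEP, CGEP and RGEP. A gene annotated as a cell wall glucanase, Y699_09027, held 15801 of the 27466 list reads on sucrose and 14496 of 36876 on xylan. On cellulose it held 4203 of 225163 and on rice straw 6717 of 200794, so the low shares rest largely on a gene of another kind. Within that list Y699_04296 ranked 2 per kilobase on cellulose and 10 on rice straw, and Y699_07898 ranked 3 and 1.

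Both GH7 cellobiohydrolases have relatives that are annotated as endoglucanases, enzymes that cut inside the chain. Y699_07518, a GH7 endoglucanase with CBM1, had 0.571, 12.0, 722 and 1706 RPM in the SGEP, XGEP, CGEP and RGEP. It was called higher than sucrose on all 3 substrates, and on cellulose against rice straw its ratio was 0.423 (0.410 to 0.437), opposite in direction to that of Y699_04296. Y699_08855, the other GH7 endoglucanase, had 6, 9, 16 and 11 reads and was called in no pair. Thus of the 4 GH7 genes, 3 rose on cellulose and 3 on rice straw, where 10.9% and 7.61% of all genes did. The 3 are Y699_07518 and both GH7 cellobiohydrolases, and the other gene had at most 16 reads in every library. How reads that fit several GH7 genes were counted is not given in the sources used here, so values of these paralogs are uncertain to that extent.

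The gene with the preceding locus tag to Y699_04296 is Y699_04295, a GH5 endoglucanase with CBM1, egl2 in Af293, where the pair also has adjoining tags. It had 3.14, 5.72, 714 and 102 RPM in the SGEP, XGEP, CGEP and RGEP. On cellulose it was 227-fold higher than on sucrose (150 to 363) and on rice straw 32.4-fold (21.3 to 52.0). Between cellulose and rice straw its ratio was 7.01 (6.50 to 7.58), beside 6.21 for Y699_04296, so both neighbours were called higher on cellulose. Y699_04293, which carries no function text in the sources used, was also called higher on cellulose, with 11.4 RPM against 1.43 on sucrose. The remaining 8 of the 10 tags around Y699_04296 were called in no pair, and with actin and histone as the scale 1 of them, Y699_04291, was called higher on cellulose than on sucrose. Of all 9479 genes with a read in any library, 30.1% were called in at least 1 of the 6 pairs, so 2 called tags of 10 is not above the background.

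Around Y699_03865, 2 of 10 tags were called in some pair, and 5 with actin and histone as the scale (36.4% of all genes under that scale). Y699_03860, annotated as a protein with SAM and PH domains, had 24.8, 421, 1012 and 664 RPM in the SGEP, XGEP, CGEP and RGEP and was called on all 3 substrates. Y699_03864, with no function text, fell on xylan, from 11.8 to 2.49 RPM, a call lost when actin and histone set the scale. Near Y699_07898 there were 3 called tags of 10, or 6 with actin and histone as the scale. Scaled by library totals, the counts around both genes stood at or below the background of 30.1%, and they changed with the scale. Y699_07896, an acyl-CoA dehydrogenase by annotation, stood at 3.57, 10.7, 26.4 and 25.4 RPM and was called on cellulose and rice straw. Y699_07902, a hypothetical protein, had 4.85, 38.6, 135 and 33.4 RPM and was called on all 3 substrates. The adjoining hypothetical gene Y699_07899 ran the other way on cellulose, with 524, 709, 18.1 and 254 RPM, and was called lower there than in each of the other libraries. Tags give an order of genes and no distances, which were not analysed here.

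**Figure D4:**
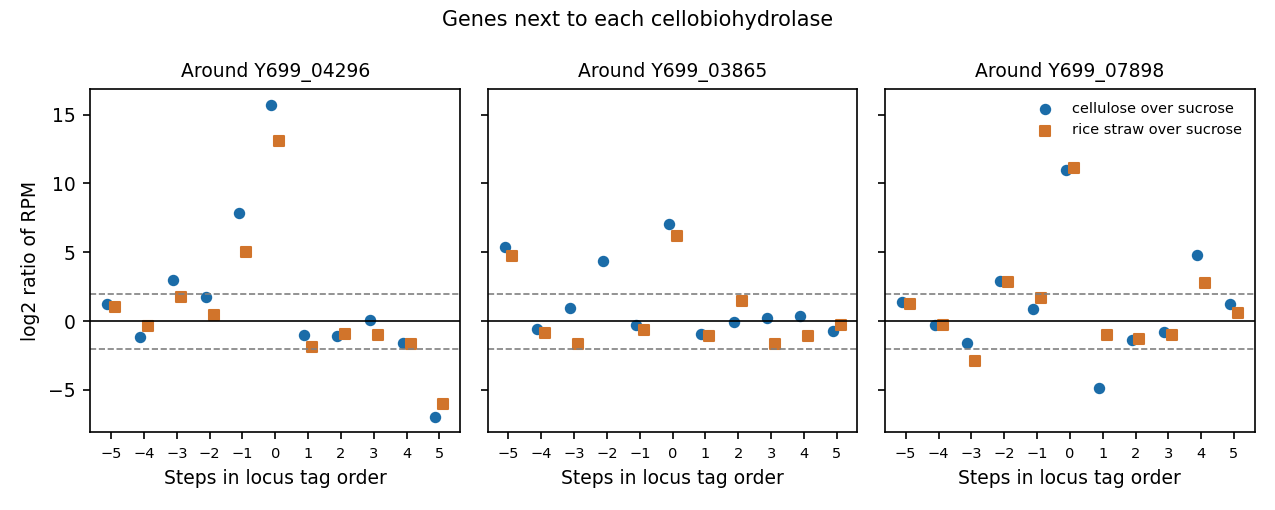
log2 ratio of RPM over sucrose for each cellobiohydrolase gene (step 0) and the 5 genes on either side in locus tag order; circles are cellulose, squares are rice straw, dashed lines mark 4-fold, a count of 0 has 0.5 reads added to both counts, and genes with no read in either library are not drawn. Next to Y699_04296 the endoglucanase gene at step -1 is high in both, and next to Y699_07898 the gene at step 1 is low on cellulose; points beyond the dashed lines with under 10 RPM in both libraries were not called.

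The other 48 genes of the cellulose breakdown list were set beside the cellobiohydrolases by role. Of these, 18 were called higher on both cellulose and rice straw, 8 of them also on xylan and 10 not. Over all 9479 genes with a read, 4.63% were called higher on both, 1.27% also on xylan and 3.37% not. Between cellulose and rice straw 6 were higher and 6 lower, where 5.76% and 4.26% of all genes were. Y699_03865 was thus called on the same 3 substrates as 8 genes of other roles, and Y699_04296 and Y699_07898 on the same 2 as 10. These sets differ only in whether the xylan value passed the thresholds, and all 3 cellobiohydrolases had a ratio above 1 there.

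Of 15 genes outside AA9 listed as endoglucanases, 14 had a read to test. Named after their values were seen, Y699_02067 and Y699_07969 are annotated only as hypothetical proteins and Y699_08586 as a glucanase. Y699_08586, exg3 in Af293, had 3.85 RPM on sucrose and 469 on xylan. On cellulose 7 of the 14 rose and none fell, on rice straw 8 rose and 1 fell, and on xylan 3 rose. Of all genes, 10.9%, 7.61% and 3.16% were higher on these substrates. The median log2 ratios of 5.03, 5.09 and 0.82 stood beside 0.07, -0.30 and -0.20 for all genes. The 3 with the highest RPM were Y699_07518, the GH45 gene Y699_08692 and the GH12 gene Y699_08637. Y699_08692 had 3.14, 6.60, 632 and 1298.3 RPM in the SGEP, XGEP, CGEP and RGEP, and was called on cellulose and rice straw. Y699_08637 had 5.42, 28.2, 916 and 897 RPM and was called on all 3 substrates. As for Y699_07898, the ratios of both genes between cellulose and rice straw, 0.487 and 1.02, were under the 4-fold threshold.

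Several AA9 genes differed between the cellulose and rice straw libraries. Of 9 members, 4 rose on cellulose, 7 on rice straw and 3 on xylan, and between cellulose and rice straw 0 were higher and 4 lower by the exact binomial test. Of all genes, 10.9%, 7.61% and 3.16% rose on these substrates, and 5.76% were higher and 4.26% lower in the last pair. The median log2 ratio of the AA9 genes in that pair was -4.54, beside 0.36 for all genes. This median is the value of 1 uncalled gene with 0 reads on cellulose and 12 on rice straw. Its size thus rests in part on the reads added where a count was 0. When actin and histone set the scale, 1 AA9 gene was higher in that pair. Y699_06174 had 0.714, 199, 3972 and 1749 RPM and was the gene of the list above Y699_04296 per kilobase on cellulose. By contrast Y699_05110, with 86.1, 35.8, 42.0 and 1979 RPM, rose on rice straw alone and was 47.1-fold lower on cellulose (41.9 to 53.0). Y699_02418 was at 9.99, 38.3, 3.85 and 1765 RPM and was 459-fold lower on cellulose than on rice straw (315 to 696). On xylan its ratio to sucrose was 3.83, which passed 4-fold in 4 of the 5 other scalings. Hence the AA9 genes with a strong preference for straw had no counterpart among the 3 cellobiohydrolases, of which none was called lower on cellulose than on rice straw.

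Of 16 β-glucosidases, which act on the product of the cellobiohydrolases, 7 rose on cellulose, 8 on rice straw and 2 on xylan, beside 10.9%, 7.61% and 3.16% of all genes. On xylan 1 fell, where 1.57% of all genes did, a call lost with the TMM or DESeq2 factors and with actin and histone as the scale. The GH1 gene Y699_09150 had 36.3, 23.3, 2664 and 1521 RPM and was 73.5-fold higher on cellulose than on sucrose (64.9 to 83.5). The GH3 gene Y699_00572 had 19.3, 27.3, 2568 and 468 RPM. Its ratio of 5.48 between cellulose and rice straw (5.29 to 5.69) was close to the 6.21 of Y699_04296, and it was the β-glucosidase called higher in that pair. The 1 called lower, Y699_05768 of GH3, chosen after its values were seen, had 0.713 RPM on cellulose and 23.8 on rice straw. Y699_08636, also GH3, had 23.4, 110, 868 and 1130 RPM and was called on all 3 substrates, as Y699_03865 was. Unlike the cellobiohydrolases, Y699_09150, Y699_00572 and Y699_08636, which were named for their high RPM, were above 10 RPM on sucrose. Y699_05768 was not, at 3.57 RPM there.

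The 8 GH16 genes, all annotated as glucanases, completed the list. On cellulose 3 of 8 rose and 1 fell, where 10.9% of all genes rose and 7.28% fell. On rice straw 0 of 7 tested by the exact binomial test rose and 1 fell, where 7.61% rose and 7.12% fell, so with so few genes the rice straw counts cannot be told from the background. With actin and histone as the scale, without an RPM minimum or at 2-fold, 1 was called higher on rice straw. Y699_09027 (Crf1) was highest on sucrose and xylan, at 2255 and 2125 RPM, with 599 on cellulose and 889 on rice straw, and passed the test in no pair; with the TMM or DESeq2 factors it passed as lower on cellulose than on xylan. Y699_02437, an anchored glucanase, had 240, 196, 467 and 695 RPM and was the gene that rose on rice straw with actin and histone as the scale. Y699_00194 fell on cellulose and rice straw, from 36.4 RPM on sucrose to 1.43 and 1.19. Its fall to 8.21 RPM on xylan was called, but not with the TMM or DESeq2 factors or with actin and histone as the scale.

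**Figure D5:**
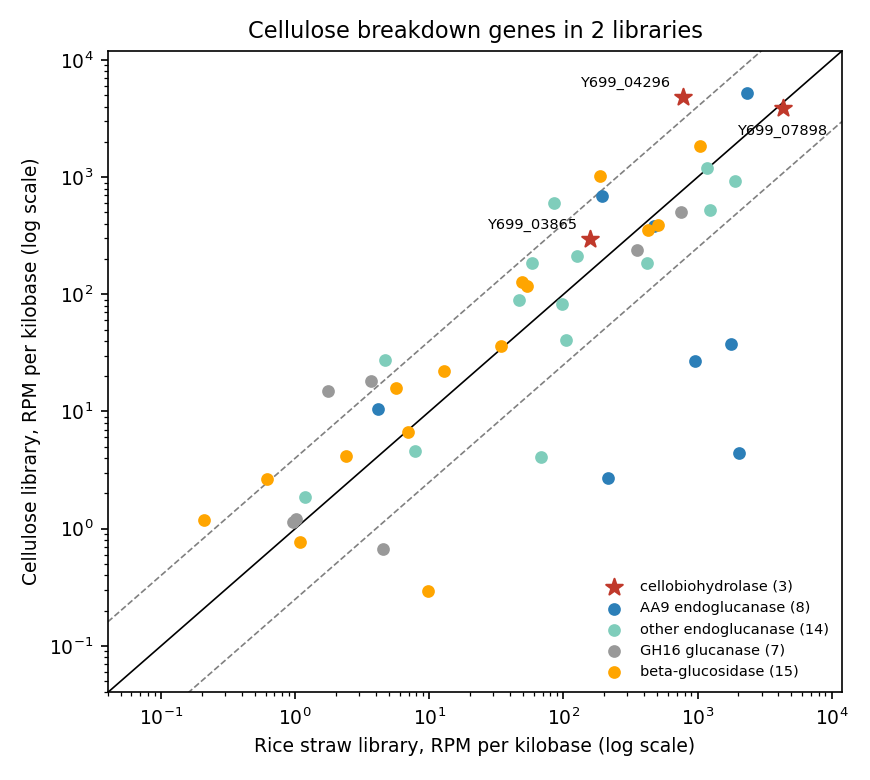
RPM per kilobase of coding length (log axes) on cellulose against rice straw for 47 of the 51 cellulose breakdown genes, coloured by role; 4 genes with no read in either or both of the 2 libraries are not drawn, the solid line marks equal values and the dashed lines 4-fold differences. Y699_04296 lies above the upper dashed line, Y699_07898 and Y699_03865 lie between the lines, and 4 AA9 genes lie below the lower line.

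Cellobiose dehydrogenases oxidise the cellobiose that cellobiohydrolases release and pass electrons to AA9 enzymes. Y699_02120, which carries CBM1, had 13.8, 10.3, 3073 and 1051 RPM in the SGEP, XGEP, CGEP and RGEP. It was called higher on cellulose and rice straw, and its ratio between these was 2.92 (2.85 to 3.001). Y699_04685, which also carries CBM1, was called on rice straw, with 369 RPM there against 40.3 on cellulose and 28.4 on sucrose. Y699_05507, placed in no family by the annotation used, was near level on the 3 substrates and was called on each. It had 107, 91.5 and 122 RPM there against 12.1 on sucrose. Of the 3 genes, 2 were thus called higher than sucrose on cellulose, where 10.9% of all genes were. Their ratios were 222 (Y699_02120) and 7.54 (Y699_05507), beside 133 or more for the cellobiohydrolases.

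Transporters of the sugar porter kind bring cellodextrins or lactose into fungal cells, as is known from Neurospora crassa and Trichoderma reesei. Y699_09366, annotated as a lactose permease, had 7.85, 8.21, 1745 and 1546 RPM in the SGEP, XGEP, CGEP and RGEP. Its ratios to sucrose were 222 (171 to 295) and 197 (151 to 261) on cellulose and rice straw, and 1.05 (0.708 to 1.55) on xylan. Y699_07512, with the same annotation, had 1.57, 3.52, 72.0 and 85.9 RPM. Both were called on cellulose and rice straw and not on xylan, as Y699_04296 and Y699_07898 were.

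Among regulators, XlnR is an activator of xylanase and cellulase genes in Aspergillus, and CreA represses them on favoured sugars. The XlnR gene (Y699_02312) had 23.0, 21.0, 179 and 226 RPM and was 7.78-fold higher on cellulose than on sucrose (6.60 to 9.23) and 9.85-fold on rice straw (8.38 to 11.7). The CreA gene (Y699_02675) had 614, 673, 3366 and 4714 RPM and was 5.48-fold (5.31 to 5.67) and 7.68-fold (7.44 to 7.93) higher. Transcripts of activator and repressor thus both rose on the 2 substrates on which the cellobiohydrolases were abundant. The 2 genes used as qPCR references in the study were called in no pair, but they were not level. Actin (Y699_04988) had 579, 521, 273 and 467 RPM, and histone (Y699_07225) 1533, 1106, 881 and 868 RPM.

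Genes whose values over the 4 libraries were most like those of each cellobiohydrolase were sought among the 7447 genes with at least 10 RPM in some library. The measure was the root mean square difference of log2 RPM after each gene's own mean was subtracted, over 4 points, with no test. For Y699_04296 the nearest were the hypothetical gene Y699_08503 (1.31), Y699_07898 itself (1.52) and Y699_05825, a putative endoglucanase with CBM1 (1.81). For Y699_07898 they were Y699_08503 (0.82), the cellulose-binding domain gene Y699_07375 (0.88) and Y699_05825 (0.89). Those 3 genes had at most 0.733 RPM on sucrose and xylan, and 260 (Y699_08503), 673 (Y699_07375) and 456 RPM (Y699_05825) on cellulose. The nearest of Y699_03865 were a GH43 gene (Y699_07917, 0.21), an RTA1 domain gene (Y699_07983, 0.30) and an arabinitol dehydrogenase gene (Y699_00731, 0.33), none of them in the cellulose breakdown list. Y699_07917 had 0, 3, 85 and 33 reads in the SGEP, XGEP, CGEP and RGEP, and Y699_08503 also had 0 on sucrose. Their distances thus rest in part on the 0.5 reads added. The distance of Y699_03865 from Y699_07898 was 2.56 and from Y699_04296 3.51, so the GH7 gene with CBM1 was nearer to the GH6 gene than to its own relative. With 1 RPM added in place of 0.5 reads, 1 of the 3 nearest remained for Y699_03865 and 1 for Y699_07898.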

How the data were processed

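RNA of *A. fumigatus* Z5 mycelia was sequenced as poly(A)-selected, full-length enriched cDNA on an Illumina instrument, with 1 library for each of 4 carbon sources. The authors kept clean reads, mapped them to the Z5 genes (Bowtie 0.12.2 in the submitters' processing notes) and deposited a read count and an RPM value per gene and library. All 38160 deposited RPM values equalled reads per 1000000 of the column total within a relative tolerance of 1e-6, so gene length plays no part in them, whatever the study's wording of the unit. Strand, and the handling of reads that map to several genes, are not stated by the sources used here. The authors' own comparison columns (log2 fold change, test value and call from DEGseq) were not used. All 9540 deposited gene lengths were multiples of 3 and were taken as coding lengths. The column headed Avicel was taken as the cellulose library.

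Counts were scaled by library totals. An exact two-sided binomial test was run over every gene that had a read in the pair of libraries, and calls used cut-offs taken from the study (q no higher than 0.0001, a 4-fold difference, 10 RPM in either library). Without replicates no dispersion can be fitted. Where a count was 0, 0.5 reads were added to both counts of a ratio. Ratios of 2 genes were compared by an exact conditional (Fisher) test with its 95% interval, adjusted over 18 tests. Sample labels give the preculture as 20 h, and the study's methods give a longer one. The software was Python 3.11.15 (scipy 1.17.1, pandas 2.3.3, numpy 2.4.6, matplotlib 3.10.9) and, for alternative scalings and assumed dispersions, DESeq2 1.42.0 and edgeR 4.0.16 under R 4.3.3. The code was tested on simulated data.

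The cellobiohydrolases and all lists were chosen with earlier results of these data known. Roles and modules follow the study's annotation tables. Genes were named by rule: the 3 cellobiohydrolases, the 2 other GH7 genes, Y699_04295, the 3 of highest RPM per role, all cellobiose dehydrogenases, permeases, regulators and reference genes, the 3 nearest profiles, and called genes within 5 locus tags on either side. Other genes are said to be chosen after their values were seen. Af293 symbols come from RefSeq (assembly ASM265v1) through the study's table of matching loci, and 42 of 114 genes looked up had one. The alternatives changed the scaling, the test, the RPM minimum, the fold threshold, the genes tested and the profile measure. The qPCR, enzyme and genome data were not analysed here.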

Additional observations from a re-analysis of the deposited data

How the results depend on the processing

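No paired analysis was possible because each carbon source has 1 library. Of 234 log2 ratios of the 3 cellobiohydrolases recomputed under 13 alternative settings, 217 kept their side of the thresholds, 17 lost a call and 0 changed direction after a call. Most losses came from asking for 10 RPM in both libraries, which genes near silent on sucrose cannot meet by construction: 0 cellobiohydrolases were then called higher than sucrose on rice straw, 0 on cellulose and 0 on xylan, and 1 over xylan on cellulose and 1 on rice straw. At 8-fold, or when a coefficient of variation of 0.4 was assumed, 0 were called on xylan over sucrose and 0 on cellulose over rice straw. Under every scaling the members' counts were the same. With 0.5 added to each read count, a normal approximation on the log scale took the place of the exact conditional test. The gain of Y699_04296 over that of Y699_07898 between sucrose and cellulose was then 18.7 (q = 7.65e-04, normal approximation) and no longer passed. The added 0.5 and the change of test were not separated, and the single sucrose read limits both. The other scalings shifted all log2 ratios: the TMM factors by -0.38 to 0.30 and actin and histone by 0.25 to 0.94. Numbers of genes called in the 12 sets (6 pairs, 2 directions) ran from 147 to 1025, from 13 to 209 at a coefficient of variation of 0.4, from 69 to 433 with 10 RPM in both libraries, from 705 to 2179 at 2-fold, from 42 to 529 at 8-fold and from 84 to 2026 with actin and histone. The share of higher among called genes moved most on cellulose over sucrose, from 59.9% to 85.0% with actin and histone (2026 higher, 357 lower). With the TMM factors it moved from 51.7% to 65.0% on rice straw over sucrose, from 59.8% to 48.8% on cellulose over xylan and from 57.5% to 39.0% on cellulose over rice straw. With DESeq2 factors it moved from 66.9% to 77.1% on xylan over sucrose, and with actin and histone from 49.4% to 61.3% on rice straw over xylan. Counting intervals leave out variation between cultures, which 1 library per carbon source cannot show.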

Other observations

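Y699_04296 and Y699_07898 belong to 26 genes whose annotation holds CBM1, the module that binds cellulose, and the lists used place no CBM1 in Y699_03865. Of the 26, 15 were called higher and 1 lower than sucrose on cellulose, 16 higher and 1 lower on rice straw, and 5 higher on xylan among 25 with a read to test. The median log2 ratios were 3.41, 5.63 and 0.86, beside 0.07, -0.30 and -0.20 for all genes, of which 10.9%, 7.61% and 3.16% were called higher. Between cellulose and rice straw 2 were higher and 5 lower, where 5.76% and 4.26% of all genes were. The 2 were Y699_04296 and its neighbour Y699_04295. With actin and histone as the scale this split turned to 5 higher and 3 lower, with Y699_02044, Y699_04625 and Y699_05825 gained and the lower calls of Y699_03740 and Y699_04661 lost.

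The CBM1 genes named in this paragraph were chosen after their values were seen. Y699_04481, a GH10 xylanase, which cuts the xylan backbone, had 4.14, 62.6, 2342 and 2502 RPM in the SGEP, XGEP, CGEP and RGEP. Like Y699_03865 it was called on all 3 substrates, and it was far below its cellulose level in the library from xylan. Y699_07619, an acetyl xylan esterase, had its highest value on xylan, at 57.3 RPM against 1.28 on sucrose, 13.3 on cellulose and 18.3 on rice straw, and was called lower on cellulose than on xylan, a call lost with actin and histone as the scale. Y699_04661 is placed in family GH62 but annotated as a Pfs, NB-ARC and TPR domain protein. It had 2.57, 19.5, 426 and 1773 RPM on sucrose, xylan, cellulose and rice straw. It was called lower on cellulose than on rice straw, which was lost with actin and histone as the scale. Of 8 CBM1 genes annotated as AA3 oxidoreductases, Y699_04740 rose on cellulose to 14.3 RPM and Y699_03740 fell there to 18.1 RPM from 144 on sucrose. Of all genes, 10.9% were called higher and 7.28% lower on cellulose, so these counts cannot be told from the background.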
